A study of Homo sapiens with 6 samples.

Results

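The genes described here encode the subunits of oxidative phosphorylation, in both of the genomes that a human cell holds. They were chosen by name alone: symbols beginning with MT-, NDUFA, NDUFB, NDUFC, NDUFS, NDUFV, UQCR, COX4 to COX8 or ATP5, together with SDHA, SDHB, SDHC, SDHD, CYC1 and CYCS. The 8 symbols beginning with NDUFAF and 1 hyphenated symbol outside the mitochondrial genome were left out. The rule found 99 of the 16551 genes in the count table, 13 of them on mitochondrial DNA and 86 on nuclear chromosomes. RNA was sequenced in 6 libraries of HaCat cells, a line of immortalised human keratinocytes, of which 3 form the control group NC and 3 the group si-YTHDF2. The latter name is the usual notation for a small interfering RNA against YTHDF2, a cytoplasmic protein that binds N6-methyladenosine in mRNA and promotes mRNA decay. The sources used here give neither the dose of siRNA nor the time of harvest. Whether the 3 libraries of a group came from separate cultures is not stated in the labels. The p-values therefore rest on the spread between libraries alone, and this spread may be technical.

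Oxidative phosphorylation takes place in the inner mitochondrial membrane. Complexes I and II pass electrons from NADH and succinate to coenzyme Q, complex III passes them on to cytochrome c, and complex IV hands them to oxygen. Complexes I, III and IV pump protons, and complex V, the ATP synthase, lets them flow back while it makes ATP. Most subunits are made from nuclear genes in the cytoplasm and imported. A small set of hydrophobic core subunits is encoded on mitochondrial DNA, which is transcribed from each strand as a long precursor. The precursor is cut into mRNAs, mostly at the tRNAs that lie between them, so mRNAs of the same strand share their transcription, and their levels are set afterwards by processing, polyadenylation and decay. Complex II has no subunit from mitochondrial DNA.

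At 2 places of the mitochondrial genome the cut does not separate neighbouring reading frames, and these are shown because the counts of the genes involved cannot be fully separated. The MT-ATP8 and MT-ATP6 frames share 46 bases at chrM:8527-8572 on the plus strand, which is 22.2% of the MT-ATP8 gene and 6.76% of MT-ATP6. The MT-ND4L and MT-ND4 frames share 7 bases at chrM:10760-10766, also on the plus strand. The windows below are taken from the GENCODE release 29 transcripts (GRCh38). Each is 30 bases long, and the capitals mark shared bases that begin with the start codon of the downstream gene.
MT-ATP8 to MT-ATP6: accctgagaaccaaaATGAACGAAAATCTG
MT-ND4L to MT-ND4: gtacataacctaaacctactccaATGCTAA
The first window shows the first 15 of the 46 shared bases, and the second window ends with all 7.

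The libraries held 19803707 to 22698069 counts, and 14547 to 14990 genes had at least 1 count in a library. Levels are given as CPM (counts per 1000000 of the library total scaled by TMM), and a gene was called where edgeR's quasi-likelihood test gave a Benjamini-Hochberg adjusted p under 0.05 over all 12264 genes tested. YTHDF2 itself stood at 74.6, 77.5 and 83.8 CPM in NC and at 43.0, 48.3 and 43.4 CPM in si-YTHDF2, which is 57.1% of the NC level (log2 fold change -0.81, SE 0.07; edgeR, adjusted p = 4.13e-07). Changes in the table as a whole were widespread, with 51.2% of the genes tested called, 26.1% higher and 25.2% lower in si-YTHDF2, and a median log2 fold change of 0.01. KRT14, the usual partner of the keratinocyte keratin KRT5, averaged only 2.22 CPM in NC. Of 10 keratinocyte markers 2 were higher (KRT5 and COL17A1) and 3 lower (TP63, DSG3 and PKP1). They summed to 4333 to 4608 CPM in NC and 4503 to 5013 CPM in si-YTHDF2, of which KRT5 alone gave 1988 to 2494 CPM. KRT1 stood at 0.229, 6.40 and 40.1 CPM in the NC libraries and at 12.2 to 15.2 CPM in si-YTHDF2. Markers of blood cells moved with the groups. All 8 erythroid and platelet markers tested, of 13 in the list, were higher in si-YTHDF2, and the list's sum was 56.2 to 58.6 CPM in NC libraries and 1550 to 1781 CPM in si-YTHDF2 libraries. The 10 leukocyte markers summed to 3.79 to 4.77 CPM in NC and 14.6 to 16.9 CPM in si-YTHDF2, with 3 of the 4 tested higher and CD14 lower. The count table holds no gene at 0 in all libraries, so a marker without any count would be missing from it. The fibroblast markers summed to 25.9 to 77.3 CPM in NC and 33.7 to 40.6 CPM in si-YTHDF2. Of 7 striated muscle markers, MYH7 and MYH2 were not in the table. The 5 present summed to 1.07 to 1.74 CPM in NC and 0.323 to 0.849 CPM in si-YTHDF2. The part of other cells, or of RNA from them, in the values below was not tested.

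Of the 99 genes, 95 passed the filter on low counts, all 13 mitochondrial ones among them. The other 4 were barely detected. NDUFA3, a supernumerary subunit of complex I, had 0 to 2 counts a library. Whether its reads were lost in the counting was not tested. COX7A1, the isoform of heart and skeletal muscle, had 0 to 3 counts. NDUFA4L2, a hypoxia-induced paralogue of NDUFA4, had 7 to 18, and the retrogene ATP5MGL 1 to 8. NDUFA6, COX4I2, COX6A2 and COX8C were not analysed here. In the 95 genes tested, 30 were higher and 10 lower in si-YTHDF2. Of the 82 nuclear-encoded members tested 40.2% were called, beside the 51.2% of all genes, and the median size of their log2 fold change was 0.14, beside 0.26. Of the 13 mitochondrial members 53.8% were called, every one of them higher, with a median size of 0.29. In bulk RNA, a change in the number of cells that hold a transcript and a change in its amount per cell cannot be told apart.

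The mitochondrial mRNAs split by gene. The rises lay in complexes I and V and on both strands. MT-ND1, MT-ND5, MT-ATP8, MT-ND6, MT-ND4L, MT-ATP6 and MT-ND2 rose in si-YTHDF2, in that order of size, from 0.84 down to 0.29 on the log2 scale. MT-CO1, MT-CO3 and MT-ND4 had log2 fold changes of 0.16, 0.13 and 0.22 and MT-CO2, MT-CYB and MT-ND3 of -0.10, -0.16 and -0.18, and none of these 6 passed the test. The median over the 13 was 0.29, beside 0.01 over all genes. By edgeR 0 of the 13 were called lower, with 1 lower at an unadjusted p under 0.05, 1 by DESeq2 and 0 by limma-voom.

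MT-ND1, a membrane subunit of complex I whose gene follows the ribosomal RNA genes (chrM:3307-4262), had the largest change. Its level was 1326, 1465 and 1677 CPM in NC and 2165, 2794 and 3064 CPM in si-YTHDF2. The groups did not overlap, and the lowest si-YTHDF2 library stood well above the highest NC library (log2 fold change 0.84, SE 0.11; edgeR, adjusted p = 1.81e-05). MT-ND5, a proton-pumping subunit of the same complex from the far end of the genome (chrM:12337-14148), was at 1431, 1570.4 and 1749 CPM in NC and 2162, 2754 and 2994 CPM in si-YTHDF2. Its si-YTHDF2 libraries too all stood above the NC ones (0.74, SE 0.10; edgeR, adjusted p = 3.07e-05). MT-ND6 is the only one of the 13 on the opposite strand (chrM:14149-14673, minus strand), directly beside MT-ND5. It was at 145, 156 and 169.9 CPM in NC and 185, 236 and 282 CPM in si-YTHDF2. These groups were also apart (0.58, SE 0.11; edgeR, adjusted p = 7.87e-04). How the reads were assigned to strands is not given in the sources used here, so antisense reads over MT-ND6 cannot be told apart from its mRNA.

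The other complex I mRNAs of the mitochondrial genome were less uniform. MT-ND4L stood at 526, 627 and 703 CPM in NC and 783, 904 and 939.9 CPM in si-YTHDF2 (0.50, SE 0.09; edgeR, adjusted p = 4.01e-04). MT-ND4, its downstream partner on the same mRNA, was at 6814, 7393 and 8366 CPM in NC and 7155, 9334 and 9857 CPM in si-YTHDF2 (0.22; edgeR, adjusted p = 0.0690). The groups were apart for MT-ND4L and overlapped for MT-ND4, where si-YTHDF2 replicate 1 lay within the NC range. MT-ND2, another proton-pumping subunit, was at 1869, 2197 and 2082 CPM in NC and 2044, 2692 and 2803 CPM in si-YTHDF2, again with overlap through si-YTHDF2 replicate 1 (0.29, SE 0.09; edgeR, adjusted p = 0.0182). The MT-ND2 call was the only one of the 7 lost in any alternative run, with adjusted p = 0.112 by DESeq2, 0.0662 by edgeR without NC replicate 1, 0.0781 without si-YTHDF2 replicate 2 and 0.108 without si-YTHDF2 replicate 3. MT-ND3, a short core subunit, went the other way, from 596, 679.7 and 733 CPM to 538, 586 and 648 CPM, with overlapping groups (-0.18; edgeR, adjusted p = 0.0639). DESeq2 did call it lower (-0.19, adjusted p = 0.0263), and so did edgeR without NC replicate 1 (-0.26, adjusted p = 0.00991) or si-YTHDF2 replicate 3 (-0.26, adjusted p = 0.0197).

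Both complex V mRNAs of the mitochondrial genome rose. MT-ATP6, the proton channel subunit, was at 4375, 4980.3 and 5237 CPM in NC and 5306, 6709 and 6996 CPM in si-YTHDF2 (0.38, SE 0.09; edgeR, adjusted p = 0.00236). MT-ATP8, a small subunit translated from the same mRNA, was at 106, 110.2 and 139 CPM in NC and 152, 210.5 and 203 CPM in si-YTHDF2 (0.67, SE 0.11; edgeR, adjusted p = 2.85e-04). Neither pair of groups overlapped. The level per kilobase of MT-ATP8 was 572 CPM in NC, far under the 7143 CPM per kilobase of MT-ATP6, although both frames lie on 1 mRNA. The sources used here do not say how the authors' counting treated short genes and the shared bases shown above.

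The mitochondrial mRNAs of complexes IV and III did not pass the test, those of complex IV being the 3 highest per kilobase in both groups. MT-CO1, the catalytic subunit of cytochrome c oxidase, was at 16271, 17829.8 and 18142 CPM in NC and 16039, 20828 and 21405 CPM in si-YTHDF2. MT-CO3 was at 10792, 11757 and 12128 CPM in NC and 10780.0, 13210.1 and 14066 CPM in si-YTHDF2. In both genes si-YTHDF2 replicate 1 was the lowest of the 6 libraries and the other 2 si-YTHDF2 libraries were the highest. Without that replicate MT-CO1 (0.28; edgeR, adjusted p = 5.52e-05), MT-CO3 (0.24, adjusted p = 4.07e-04) and MT-ND4 (0.36, adjusted p = 2.62e-04) were called higher, and the mitochondrial members called higher went from 7 to 10. MT-ND4 was also called by edgeR without NC replicate 3 (0.30, adjusted p = 0.0243) and with no low-count filter (0.22, adjusted p = 0.0358). All 3 genes were called with library totals (edgeR, adjusted p up to 0.0309). MT-CO2, which carries the copper site that accepts electrons from cytochrome c, was at 8372, 9723 and 9375 CPM in NC and 7803, 8645 and 9261 CPM in si-YTHDF2 (-0.10; edgeR, adjusted p = 0.224). MT-CYB, the cytochrome b of complex III (chrM:14747-15887), was at 5607, 6102 and 6672 CPM in NC and 4666, 5724 and 6029 CPM in si-YTHDF2 (-0.16; edgeR, adjusted p = 0.110). The groups overlapped for both. MT-CYB was called lower by edgeR without NC replicate 1 (-0.22, adjusted p = 0.0417) or si-YTHDF2 replicate 3 (-0.24, adjusted p = 0.0375).

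**Figure D1:**
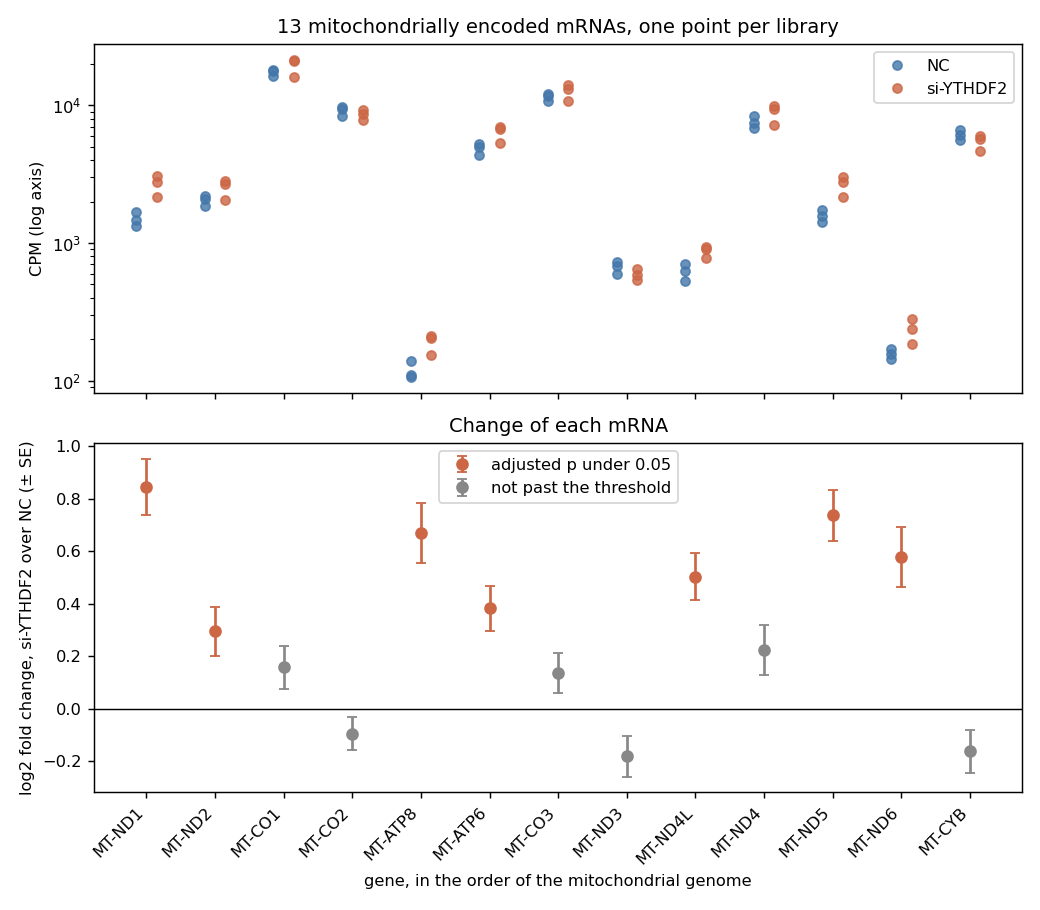
The upper panel plots the level of each of the 13 mitochondrial mRNAs in CPM on a log axis, with 1 point per library (blue NC, red si-YTHDF2) and genes in the order of the mitochondrial genome. The lower panel plots the log2 fold change of si-YTHDF2 over NC with its SE from edgeR, in red where the adjusted p was under 0.05 and in grey otherwise, and shows MT-ND1 highest at 0.84 and MT-ND3 lowest at -0.18.

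Because mRNAs of the same strand come from a common precursor, each gene was also taken as a percentage of the counts of all 13 in its own library, a measure on which library scaling has no bearing. On this scale the groups did not overlap for 11 of the 13 genes, where the exact permutation test gives p = 0.1, the smallest that 3 libraries against 3 allow. By CPM the groups were apart for 6 of the 13, or 46.2%, beside 58.5% of all genes tested. MT-ND1 made up 2.28, 2.27 and 2.50% of mitochondrial mRNA counts in the NC libraries and 3.62, 3.74 and 3.90% in si-YTHDF2. MT-ND5 went from 2.50 ± 0.0927% to 3.71 ± 0.0986% (SD, n = 3 each). Against this, MT-CYB fell from 9.67 ± 0.245% to 7.72 ± 0.0764%, and every si-YTHDF2 library was below every NC library. MT-CO2 went from 14.5 ± 0.554% to 12.1 ± 0.795% and MT-ND3 from 1.06 ± 0.0340% to 0.836 ± 0.0579% (SD, n = 3 each), both without overlap. MT-CO1 took the largest share, with groups that overlapped, at 27.5 ± 0.473% in NC against 27.3 ± 0.544% for si-YTHDF2 (exact two-sided permutation test, p = 0.7). These percentages sum to a fixed total, so a rise of some genes lowers the share of others.

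Ratios between single genes do not depend on that total. The first pairs below set the genes with the largest rises, MT-ND1 (0.84) and MT-ND5 (0.74), over MT-CYB (-0.16). Their separation therefore follows from the choice of pair and is a description. MT-ND1 counts per MT-CYB count were 0.236, 0.240 and 0.251 in the NC libraries and 0.464, 0.488 and 0.508 in the si-YTHDF2 libraries. The spread within each group was small beside the distance between them. MT-ND5 per MT-CYB went from 0.258 ± 0.00354 to 0.480 ± 0.0166 (SD, n = 3 each; exact two-sided permutation test, p = 0.1). MT-ND1 and MT-ND2 exchanged places: the ratio of their counts was 0.709, 0.667 and 0.806 in the NC libraries and 1.06, 1.04 and 1.09 in the si-YTHDF2 libraries. Per kilobase, MT-ND1 stood at 1558 CPM in NC, under MT-ND2 (1966 CPM) and MT-ND3 (1935 CPM), and at 2797 CPM in si-YTHDF2, above MT-ND2 (2412 CPM) and MT-ND3 (1706 CPM). The ratio also moved within both shared mRNAs. MT-ND4L per MT-ND4 was 0.0771, 0.0847 and 0.0840 in the NC libraries and 0.109, 0.0968 and 0.0954 in the si-YTHDF2 libraries, and MT-ATP8 per MT-ATP6 was 0.0242, 0.0221 and 0.0265 in the NC libraries and 0.0287, 0.0314 and 0.0289 in the si-YTHDF2 libraries. Both pairs of groups were apart, and for each the exact test gives its smallest p, 0.1. In the full order of levels per kilobase MT-CO3 was the highest in both groups (14743 and 16180 CPM per kilobase) and MT-ND6 the lowest (299 and 446 CPM per kilobase).

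All 13 mRNAs together took 5.75, 6.26 and 6.55% of library counts in the NC libraries and 6.21, 7.61 and 7.94% in si-YTHDF2. The groups overlapped, since si-YTHDF2 replicate 1 lay inside the NC range (6.19 ± 0.403% against 7.25 ± 0.922%, SD, n = 3 each; exact two-sided permutation test, p = 0.3). The 86 nuclear genes together took 1.04, 1.04 and 0.997% in the NC libraries and 1.08, 1.07 and 1.09% in si-YTHDF2. Here the groups were apart, by a small amount (difference 0.0575 percentage points; exact two-sided permutation test, p = 0.1). After TMM scaling the nuclear sum was 10487 CPM in NC and 10586 CPM in si-YTHDF2. Sequences of mitochondrial genes also occur as copies in the nuclear genome, and the sources used here do not say how reads that match both were counted.

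**Figure D2:**
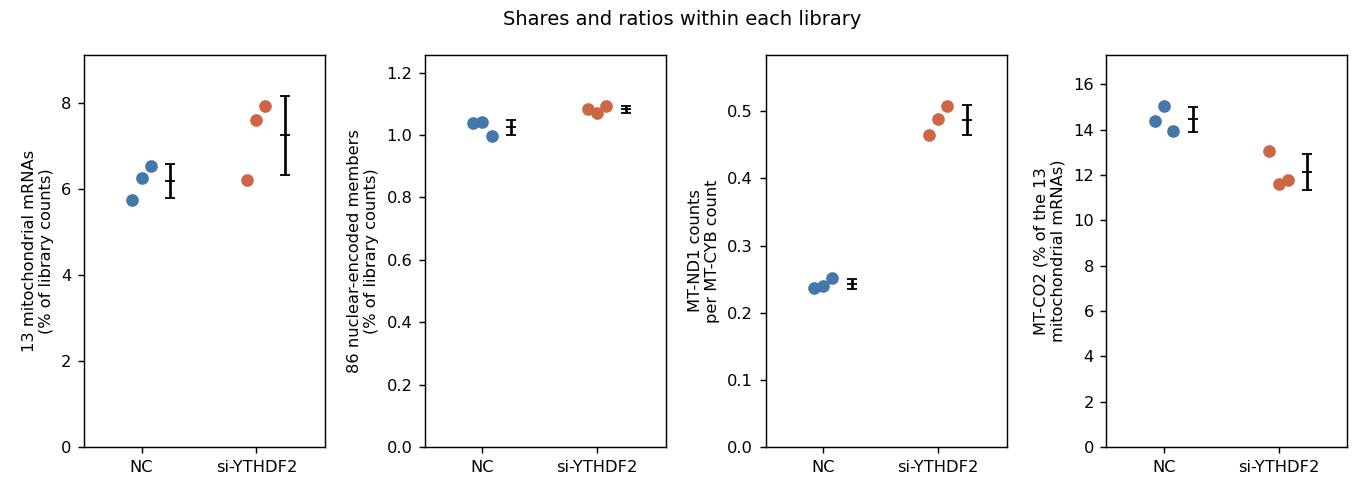
The 4 panels plot, with 1 point per library and the mean with its SD beside them (n = 3 per group), the share of library counts from the 13 mitochondrial mRNAs, the share from the 86 nuclear members, MT-ND1 counts per MT-CYB count, and MT-CO2 as a percentage of mitochondrial mRNA counts. The groups overlap in the first panel and are apart in the other 3, most widely in the ratio of MT-ND1 to MT-CYB (0.243 in NC and 0.487 in si-YTHDF2). That pair sets the mRNA with the largest rise over a gene with a negative log2 fold change.

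Among the 82 nuclear-encoded members tested, 23 rose and 10 fell, which is 28.0% and 12.2% beside 26.1% and 25.2% of all genes. With library totals in place of TMM the split was 31 higher and 5 lower, so 86.1% of the called nuclear members were higher where TMM gave 69.7%. Over all genes the same change of scaling took the higher share of called genes from 50.9% to 61.3% and moved the median log2 fold change to 0.08. The count of 10 lower fell to 6 without NC replicate 2, and leaving out replicate 2 of si-YTHDF2 gave 6 as well. Groups were apart for 44 of the 82, or 53.7%, beside 58.5% of all genes. Nuclear members have short transcripts, with a median of 1265.5 bases against 3459 over all genes tested. The 411 other tested genes under 1000 bases had a median log2 fold change of -0.03. Over all 82 nuclear members tested, of any length, the median was 0.03.

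In complex I the called nuclear genes were all higher. Of 35 tested, 11 rose and 24 did not pass the test, with a median log2 fold change of 0.12. The share called was 31.4%, beside 51.2% of all genes, of which 26.1% were higher and 25.2% lower. By edgeR 0 fell, with 2 lower at an unadjusted p under 0.05, 1 by DESeq2 and 0 by limma-voom. Without si-YTHDF2 replicate 1, and likewise with a trend with length and GC taken out, 3 were called lower. The 7 core subunits, which carry the flavin and the iron-sulfur clusters, held 5 of the 11 (NDUFV2, NDUFS7, NDUFS8, NDUFS3 and NDUFS1), and the 28 supernumerary subunits tested, which surround the core, held the other 6 (NDUFC2, NDUFB8, NDUFC1, NDUFB6, NDUFS6 and NDUFB2).

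NDUFV2, a core subunit with an iron-sulfur cluster in the NADH-oxidising arm, changed most. It was at 3.98, 3.40 and 4.02 CPM in NC and 8.88, 7.43 and 8.84 CPM in si-YTHDF2, with all si-YTHDF2 libraries above all NC libraries (log2 fold change 1.14, SE 0.16; edgeR, adjusted p = 5.31e-05). It also had the lowest level per kilobase of the 7 core subunits in NC (4.03 CPM), and 28.4% of its annotated exon bases are shared with another gene on the same strand. NDUFC2, a supernumerary subunit of the membrane arm, went from 28.5, 35.0 and 34.3 CPM to 45.8, 50.04 and 40.5 CPM, again without overlap (0.48; edgeR, adjusted p = 8.65e-04). The further rises were of 0.34 or less on the log2 scale. NDUFS7 and NDUFS8, which carry the last clusters before coenzyme Q, rose by 0.30 (edgeR, adjusted p = 0.00531) and 0.25 (adjusted p = 0.00199). NDUFB8 rose by 0.34 (edgeR, adjusted p = 0.0123, and 0.0723 without si-YTHDF2 replicate 3) and NDUFC1 by 0.27 (adjusted p = 0.00627). The calls of NDUFS3 (0.24), NDUFS1 (0.15), NDUFB2 (0.25) and NDUFB6 (0.26) each ended when single libraries were left out: NC replicate 2 for NDUFS3 (edgeR, adjusted p = 0.0547), any NC replicate for NDUFS1 (up to 0.148), and NC replicates 1 and 3 and si-YTHDF2 replicate 2 for the other two, with si-YTHDF2 replicate 3 for NDUFB2 (0.193) and si-YTHDF2 replicate 1 for NDUFB6 (0.0510). Overlapping annotation touches several of these: 49.1% of NDUFS7's exon bases lie opposite another gene, 33.8% of NDUFB8's are shared on the same strand, 18.5% of NDUFC1's and 16.3% of NDUFC2's. NDUFV1, the NADH-binding flavoprotein and the nuclear gene of complex I with the highest CPM, averaged 169.9 CPM in NC and 161 CPM in si-YTHDF2 with overlapping groups (-0.08; edgeR, adjusted p = 0.279), and was called lower once a trend with length and GC was taken out (-0.13, adjusted p = 0.0116). NDUFS4, a supernumerary subunit often mutated in Leigh syndrome, had a value of -0.15 (edgeR, adjusted p = 0.0593, and 0.0122 without si-YTHDF2 replicate 1). By edgeR it was also called lower with RLE factors (adjusted p = 0.0469) and with library sizes and factors from nuclear-encoded genes only (0.0452).

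Complex II, the succinate dehydrogenase, changed little. SDHB, its iron-sulfur subunit, was at 77.4, 72.4 and 72.1 CPM in NC and 81.7, 87.9 and 80.4 CPM in si-YTHDF2 (0.17; edgeR, adjusted p = 0.0258). The groups were apart by a narrow margin, and the call was lost without NC replicate 2 (0.16, adjusted p = 0.0998), NC replicate 3 (0.15, adjusted p = 0.103) or si-YTHDF2 replicate 2 (0.13, adjusted p = 0.120). The flavoprotein SDHA averaged 250.3 CPM in NC and 242 CPM in si-YTHDF2 (-0.05; edgeR, adjusted p = 0.448), with 0.02 under library totals and a call as lower once the length and GC trend was taken out (-0.11, adjusted p = 0.0181). The membrane anchors SDHC (-0.01, with a positive sign under library totals) and SDHD (0.19) did not pass the test either (edgeR, adjusted p = 0.900 and 0.0664). SDHD was called higher without si-YTHDF2 replicate 3 (0.28, adjusted p = 0.00547), the only si-YTHDF2 library within the NC range. By edgeR SDHD was also called higher with library totals (adjusted p = 0.0250) and with the length and GC trend taken out (0.26, adjusted p = 0.00302).

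Complex III held UQCRFS1 among the larger rises and, in UQCRB, the largest fall called in the nuclear set. Of its 10 genes 4 rose, 2 fell and 4 did not pass the test, with a median of -0.00. That is 40% higher and 20% lower, beside 26.1% and 25.2% of all genes. UQCRFS1, the Rieske iron-sulfur protein, was at 121, 125 and 115 CPM in NC and 158, 163 and 167 CPM in si-YTHDF2 (0.43, SE 0.05; edgeR, adjusted p = 1.75e-05). UQCRB, a supernumerary subunit near the coenzyme Q site, was at 167, 190.0 and 168 CPM in NC and 137, 122 and 131 CPM in si-YTHDF2 (-0.43, SE 0.06; edgeR, adjusted p = 8.27e-05). These subunits of 1 complex thus moved by like amounts in opposite directions, and neither pair of groups overlapped. CYC1, the cytochrome c1 that passes electrons to cytochrome c, rose from 113, 114 and 111 CPM to 128, 143 and 147 CPM (0.30; edgeR, adjusted p = 7.92e-04). UQCRC1, a large core protein on the matrix side, rose by 0.19 (edgeR, adjusted p = 0.0193) and UQCRQ by 0.18 (adjusted p = 0.0189), and both calls were lost without NC replicate 1, NC replicate 3 or si-YTHDF2 replicate 3 (adjusted p up to 0.0928 and 0.102). Leaving out si-YTHDF2 replicate 2 ended the UQCRC1 call as well (adjusted p = 0.0704). UQCRC2, the other core protein and the nuclear gene of the complex with the highest CPM, was at 292 CPM in NC and 282 CPM in si-YTHDF2 (-0.05, and 0.01 with library totals; edgeR, adjusted p = 0.422). UQCRH, the hinge protein beside cytochrome c1, fell by 0.18 (edgeR, adjusted p = 0.0148), a call lost with library totals (adjusted p = 0.109), without NC replicate 2 (0.0884) and also without replicate 2 of si-YTHDF2 (0.0599). UQCRHL is a near-identical copy of UQCRH, so the division of reads between them is uncertain.

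CYCS, the cytochrome c that carries electrons from complex III to complex IV and that triggers apoptosis when released, rose. It was at 94.2, 106 and 101 CPM in NC and 157, 146 and 132 CPM in si-YTHDF2. Every si-YTHDF2 library was above every NC library (0.53, SE 0.07; edgeR, adjusted p = 2.47e-05). CYCS has processed pseudogenes in the human genome that could share its reads.

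Complex IV changed by small amounts: of 13 nuclear genes tested 2 rose, 4 fell and 7 did not pass the test, with a median of -0.10. Its shares were 15.4% higher and 30.8% lower, beside 26.1% and 25.2% of all genes. The balance depended on the setting, with 3 higher and 1 lower under library totals, and 2 higher and 1 lower without NC replicate 2 or without replicate 2 of si-YTHDF2. COX8A, a small membrane subunit in the isoform found in most tissues, rose from 81.1, 81.5 and 78.7 CPM to 98.6, 108 and 108 CPM (0.38, SE 0.06; edgeR, adjusted p = 8.58e-05). COX5A, which faces the matrix, rose by 0.21 (edgeR, adjusted p = 0.00485). For COX8A, 34.5% of the annotated exon bases are shared with another gene on the same strand. COX7C, the nuclear gene of the complex with the highest CPM, fell from 553, 562 and 506 CPM to 453, 451 and 462 CPM, without overlap (-0.25, SE 0.05; edgeR, adjusted p = 0.00121). COX7A2L, which helps join complexes III and IV into supercomplexes, fell by 0.16 (edgeR, adjusted p = 0.0254), COX7A2 by 0.15 (adjusted p = 0.0471) and COX6A1 by 0.15 (adjusted p = 0.0273). All 3 calls were lost with library totals (adjusted p = 0.147, 0.237 and 0.184), and each was lost without NC replicate 2 (0.101, 0.0816 and 0.0805), NC replicate 3 (0.0981, 0.0514 and 0.0630) or si-YTHDF2 replicate 2 (0.0958, 0.157 and 0.0976). Leaving out NC replicate 1 also ended the COX7A2 and COX6A1 calls (adjusted p = 0.200 and 0.0868), and leaving out si-YTHDF2 replicate 1 ended that of COX7A2 (0.0788). The COX7A2 call was lost as well with upper-quartile factors (0.0506) and with the length and GC trend taken out (-0.08, adjusted p = 0.251).

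The tissue isoforms of complex IV were at or near the detection limit in these cells. COX7A1 had too few counts to test, against 148 CPM in NC for COX7A2, its counterpart in most tissues. COX6B2, the testis isoform, had 23, 15 and 8 counts in the NC libraries and 3, 11 and 7 in the si-YTHDF2 libraries (log2 fold change -1.12; edgeR, adjusted p = 0.110, and 0.0471 without NC replicate 3). Its partner COX6B1 averaged 129 CPM in NC and 141 CPM in si-YTHDF2 (0.13; edgeR, adjusted p = 0.119, but called without si-YTHDF2 replicate 1, with library totals and with the length and GC trend taken out, at 0.00593, 0.0198 and 0.0433). COX4I1, the usual form of subunit 4, was at 456 CPM in NC and 468 CPM in si-YTHDF2 (0.04, with a sign that turned once a trend with length and GC was taken out; edgeR, adjusted p = 0.570). NDUFA4, once counted in complex I and now placed in complex IV, was at 192, 194 and 189 CPM in NC and 179, 178 and 177 CPM in si-YTHDF2, apart but not past the threshold (-0.10; edgeR, adjusted p = 0.0848, and 0.0365 without si-YTHDF2 replicate 1).

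Complex V divided evenly, with 4 of 19 tested genes higher, 4 lower and 11 not past the threshold (median 0.01). Each share was 21.1%, beside 26.1% higher and 25.2% lower of all genes. In the c ring, the rotor that proton flow turns, a single mature protein is encoded by ATP5MC1, ATP5MC2 and ATP5MC3. ATP5MC2, the highest of them per kilobase in NC, fell from 228, 237 and 231 CPM to 163, 184 and 184 CPM (-0.39, SE 0.06; edgeR, adjusted p = 7.41e-05). ATP5MC3 went from 139.6, 145 and 130.1 CPM to 152, 159 and 161 CPM (0.19; edgeR, adjusted p = 0.0134), a call lost without NC replicate 3 (adjusted p = 0.0872) or si-YTHDF2 replicate 3 (0.0555). Groups were apart for both, and in opposite directions. ATP5MC1 had a value of 0.12 (edgeR, adjusted p = 0.0980), also with groups apart, and the 3 genes together summed to 429 CPM in NC and 398 CPM in si-YTHDF2.

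The catalytic F1 head was divided as well. ATP5F1B, the catalytic beta subunit and the nuclear gene with the highest level of the whole set (451 CPM per kilobase in NC), was at 828, 821 and 841 CPM in NC and 891, 937 and 943 CPM in si-YTHDF2 (0.15, SE 0.04; edgeR, adjusted p = 0.0110). That call was lost without si-YTHDF2 replicate 3 (0.14, adjusted p = 0.0587). ATP5F1A, the alpha subunit that alternates with beta in the head, had a value of 0.11 (edgeR, adjusted p = 0.0540), and was called by DESeq2 (adjusted p = 0.0361) and limma-voom (0.0423). The gamma subunit ATP5F1C, the central shaft, fell from 405, 386 and 371 CPM to 340.2, 323 and 332 CPM (-0.23, SE 0.05; edgeR, adjusted p = 0.00209), and the epsilon subunit ATP5F1E by 0.22 (adjusted p = 0.00707, and 0.0527 with library totals). ATP5PB, the main subunit of the stator stalk, fell by 0.22 (edgeR, adjusted p = 0.00523). In the membrane part ATP5MF rose from 127, 130.3 and 127 CPM to 156, 158 and 169.7 CPM (0.33, SE 0.05; edgeR, adjusted p = 1.38e-04). ATP5S, also known as coupling factor B, rose from 22.2, 21.8 and 26.4 CPM to 32.6, 33.4 and 33.6 CPM (0.50, SE 0.09; edgeR, adjusted p = 3.10e-04). The inhibitor ATP5IF1, which stops the enzyme from running backwards, averaged 81.8 CPM in NC and 77.0 CPM in si-YTHDF2 (-0.09; edgeR, adjusted p = 0.200), and was called lower with the length and GC trend taken out (-0.13, adjusted p = 0.0141).

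**Figure D3:**
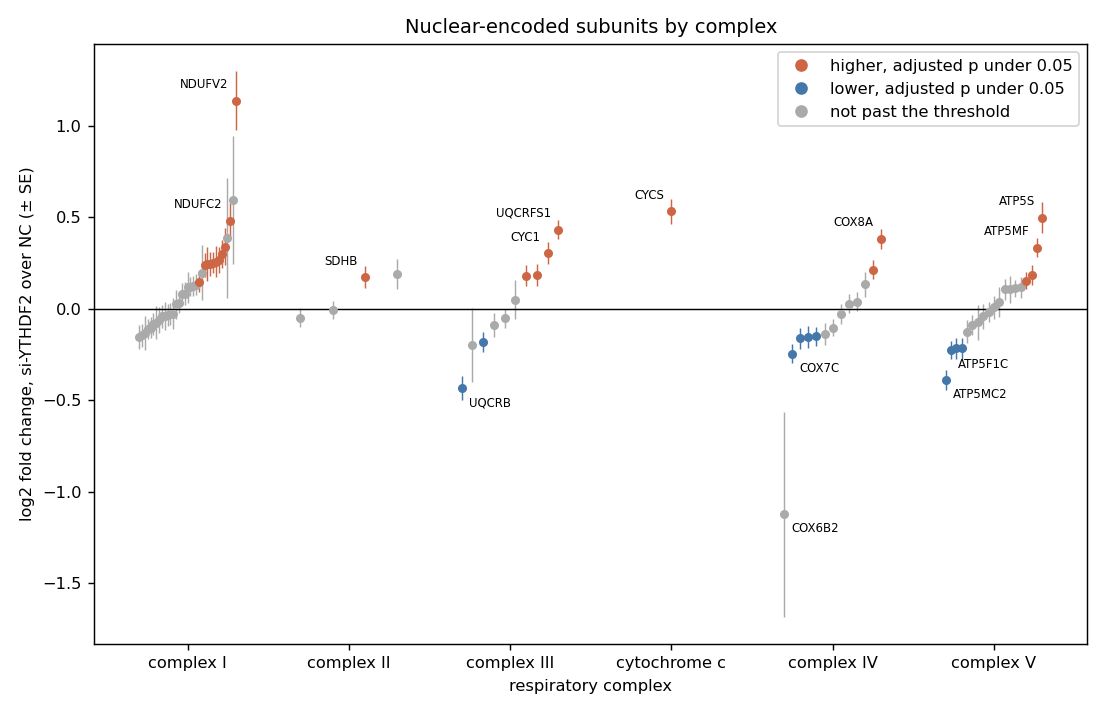
Each point is 1 of the 82 nuclear-encoded genes tested, placed by complex, with its log2 fold change of si-YTHDF2 over NC and its SE from edgeR; red and blue mark genes higher and lower at an adjusted p under 0.05, and grey the rest. Complex I shows red points up to NDUFV2 at 1.14 and no blue ones, whereas complexes III, IV and V hold both, with UQCRB at -0.43 and ATP5MC2 at -0.39; the low-count COX6B2 at -1.12 has the widest error.

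The genomes can be set side by side by level and by count. The median level per kilobase in NC was 2082 CPM for mitochondrial members and 45.9, 49.3, 79.0, 162 and 86.1 CPM for the nuclear members of complexes I to V. Lengths are those of each gene's longest annotated protein-coding transcript, such as 13566 bases for SDHC and 11819 bases for NDUFS1. The nuclear levels per kilobase and the order of the complexes depend on that choice. In complex I both genomes had rises, 5 of 7 mitochondrial genes (71.4%) and 11 of 35 nuclear genes (31.4%), beside 26.1% of all genes. The edgeR fit reported held no fall there, whereas some alternative edgeR fits did. In complex IV none of the 3 mitochondrial genes passed the test, and the nuclear median was -0.10. In complex V both mitochondrial genes rose while the nuclear genes divided. These are counts and medians, and the difference between the genomes or between complexes was not tested.

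Nuclear promoters of this gene set are known for sites of NRF1 and of ETS factors such as GABP. In windows from 250 bases before to 50 after the RefSeq start (GRCh38.p14), available for 67 nuclear members, the core of the NRF1 site (GCGCA, any base, GCGC) occurred on either strand in 16, or 23.9%, against 9.75% of 13048 promoters in the table. The ETS motif CCGGAAG occurred in 20, or 29.9%, against 16.2%, and in no member did the matches of these motifs overlap. Of the 15 tested genes with an NRF1 match 2 were higher (13.3%) and 1 lower (6.67%), with a median of 0.05. Of the 51 without a match 15 were higher (29.4%) and 8 lower (15.7%), with a median of 0.03. Of the 20 tested with an ETS match 5 were higher (25%) and 2 lower (10%). Of the 46 without one 12 were higher (26.1%) and 7 lower (15.2%). Over all genes tested 26.1% were higher and 25.2% lower. The difference between genes with and without a match was not tested. The 3 called genes with an NRF1 match are shown with their 30 bases around it, written on the strand of the gene with the match in capitals. In UQCRFS1 and UQCRC1 the match lies on the strand opposite to the gene, so the capitals are the reverse complement of the core.
UQCRFS1, chr19:29213163-29213192, minus strand: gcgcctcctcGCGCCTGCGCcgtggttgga
UQCRC1, chr3:48609674-48609703, minus strand: gtacggtactGCGCCTGCGCcgcgaccgcc
ATP5F1C, chr10:7788145-7788174, plus strand: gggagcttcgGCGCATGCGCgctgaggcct
A match of letters is a description and does not show that the factor binds there.

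Genes that build and supply the complexes changed in both directions. Of 16 complex I assembly factors 3 rose and 3 fell (median 0.08). The 3 with the smallest p all rose: FOXRED1 (0.43; edgeR, adjusted p = 3.33e-04), NDUFAF5 (0.54, adjusted p = 7.52e-04) and NDUFAF6 (0.44, adjusted p = 0.00244). The 3 that fell were NDUFAF3 (-0.38; edgeR, adjusted p = 0.00308), ECSIT (-0.21, adjusted p = 0.0297) and NDUFAF7 (-0.23, adjusted p = 0.0468). For complex II 1 of 4 rose and 1 fell. SDHAF4, which helps insert flavin-loaded SDHA, fell from 8.55, 8.73 and 8.54 CPM to 3.72, 5.21 and 4.94 CPM (-0.90; edgeR, adjusted p = 4.02e-04), and SDHAF2, the flavinylation factor of SDHA, rose by 0.40 (adjusted p = 0.00709), while SDHAF1 had a value of -0.22 (adjusted p = 0.223). For complex III 1 of 6 rose and 1 fell: LYRM7, a chaperone of the Rieske protein UQCRFS1, fell by 0.57 (edgeR, adjusted p = 0.00139) and TTC19 rose by 0.24 (adjusted p = 0.00262), with UQCC2 at 0.16 (adjusted p = 0.0549, and 0.00809 without si-YTHDF2 replicate 1).

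Complex IV assembly factors mostly rose where they were called, 8 of 22 higher and 1 lower, with a median of 0.11. COX20, a chaperone of the MT-CO2 protein, went from 18.4, 17.6 and 19.4 CPM to 38.3, 31.5 and 31.2 CPM (0.87; edgeR, adjusted p = 5.13e-06). The groups were far apart. The copper chaperone COA6 (0.52; edgeR, adjusted p = 1.80e-04) and COA7 (0.51, adjusted p = 6.82e-05) rose too. Of 5 ATP synthase assembly factors 2 rose and 2 fell, with TMEM70 at 0.59 (edgeR, adjusted p = 7.18e-05), ATPAF2 at 0.41 (adjusted p = 0.0154) and ATPAF1 at -0.27 (adjusted p = 0.0121). The ATPAF1 call was lost without NC replicate 1 (adjusted p = 0.0658), si-YTHDF2 replicate 3 (0.0511) or with library totals (0.0585), and the ATPAF2 call without NC replicate 2 (0.0522) or si-YTHDF2 replicate 2 (0.0944).

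In the machinery of mitochondrial DNA and RNA, 2 of 17 genes of transcription and replication rose and 3 fell (median 0.06). TFAM, which packages mitochondrial DNA and starts its transcription, fell from 78.7, 78.0 and 78.3 CPM to 66.1, 57.6 and 53.6 CPM (-0.41; edgeR, adjusted p = 3.48e-04). The mitochondrial topoisomerase TOP1MT fell by 0.56 (edgeR, adjusted p = 4.12e-05) and the helicase TWNK rose by 0.33 (adjusted p = 0.00258). Among 21 genes of mitochondrial RNA processing and stability 8 rose and 1 fell (median 0.12). PDE12, which removes poly(A) tails from mitochondrial mRNAs, rose from 22.4, 22.1 and 21.1 CPM to 36.1, 37.4 and 29.9 CPM (0.66; edgeR, adjusted p = 4.97e-05). PNPT1, the polynucleotide phosphorylase of the mitochondrial degradosome, rose by 0.53 (edgeR, adjusted p = 1.59e-04) and HSD17B10, a subunit of mitochondrial RNase P, by 0.45 (adjusted p = 5.26e-05).

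Of 13 nuclear regulators of the pathway 2 rose and 5 fell (median -0.03). The coactivators PPARGC1B (0.87; edgeR, adjusted p = 5.17e-07) and PPRC1 (0.50, adjusted p = 5.97e-05) rose. ESRRG, an orphan nuclear receptor that drives oxidative genes in heart and muscle, fell from 2.24, 2.44 and 2.21 CPM to 0.135, 0.138 and 0.1498 CPM, the latter 3 counts in each library (-3.97; edgeR, adjusted p = 1.79e-06). Of 18 citrate cycle genes 8 rose and 1 fell (median 0.11), led by the isocitrate dehydrogenase subunit IDH3B (0.40; edgeR, adjusted p = 1.16e-04), fumarase FH (0.33, adjusted p = 1.17e-04) and the pyruvate dehydrogenase subunit DLAT (0.32, adjusted p = 8.58e-04). Of 18 genes of coenzyme Q synthesis and of carriers 6 rose and 4 fell (median 0.05). COQ5, a methyltransferase of coenzyme Q synthesis, fell from 42.5, 44.6 and 44.0 CPM to 26.6, 27.7 and 23.2 CPM (-0.76; edgeR, adjusted p = 3.85e-06), whereas PDSS1, which makes the side chain of coenzyme Q, rose by 0.62 (adjusted p = 2.20e-04) and the adenine nucleotide carrier SLC25A4 by 0.57 (adjusted p = 7.73e-05). These lists were drawn up with earlier results on the same libraries known, so their counts are descriptions beside the 26.1% higher and 25.2% lower of all genes.

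**Figure D4:**
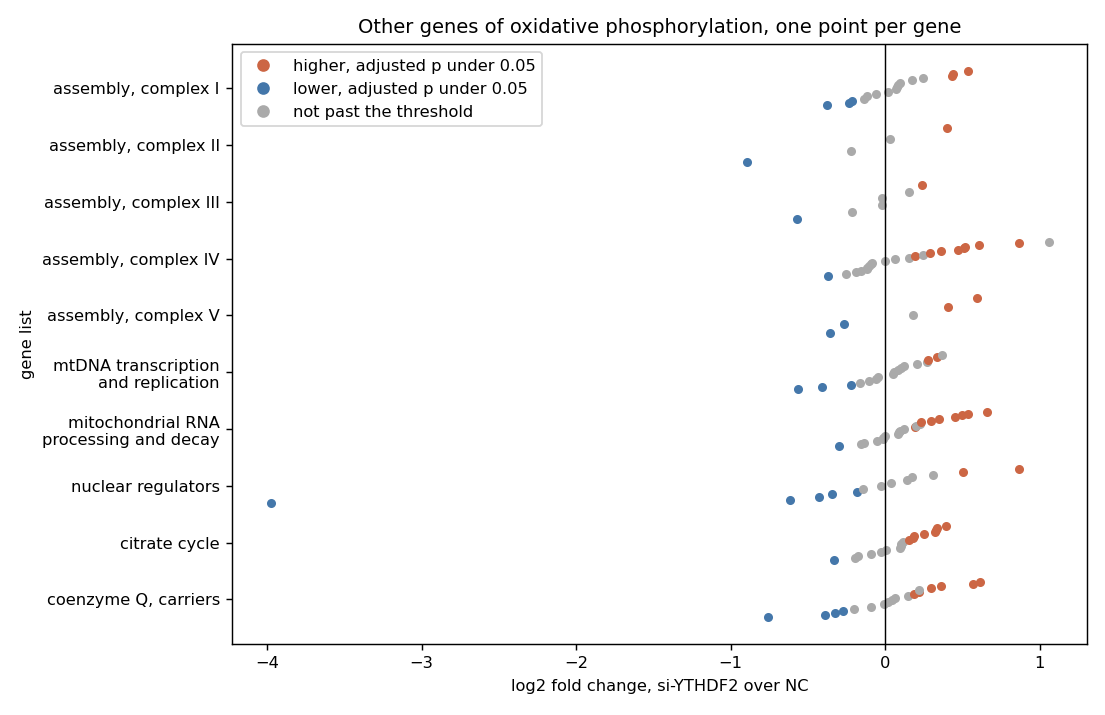
Each point is 1 gene of the 10 lists of assembly factors, mitochondrial DNA and RNA genes, regulators, citrate cycle and carriers, placed by its log2 fold change of si-YTHDF2 over NC from edgeR, in red or blue where higher or lower at an adjusted p under 0.05 and in grey otherwise. Most points lie near 0, ESRRG stands apart at -3.97, and the complex IV assembly list holds 8 red points against 1 blue one.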

How the data were processed

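Total RNA was depleted of ribosomal RNA before library construction, per the labels' protocols. The deposited table holds raw read counts per gene, per the file headers, and these were tested. The build hg38 is named in the submitters' processing notes. No aligner, counting program, annotation release or strand setting is named in the sources used here. The table's 6 further columns of normalized values were not used. edgeR 4.0.16 in R 4.3.3 was run on all genes with TMM factors, its filter on low counts and the quasi-likelihood test, 3 libraries against 3. Adjusted p-values are Benjamini-Hochberg over 12264 genes and the threshold was 0.05. CPM and percentages were computed from the counts. Alternatives used DESeq2 1.42.0, limma 3.58.1, other scalings and filters, a replicate block, removal of a length and GC trend, and each library left out. The fit was tested on simulated data. The rule for named genes took every mitochondrial member, per complex the 5 largest called changes and the most abundant nuclear gene, tissue isoforms with their partners, CYC1, CYCS and ATP5IF1, and 3 genes per list by p. Other members were named to complete a complex or subunit group, after their values were seen. So were the 3 complex I assembly factors that fell, which are outside the 97 named genes counted over the alternatives. The members and lists were chosen with earlier results of these data known. Genes were placed on GENCODE release 29, and lengths, also for levels per kilobase, are those of each gene's longest protein-coding transcript there.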

Additional observations from a re-analysis of the deposited data

How the results depend on the processing

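Of the members called, 13 nuclear genes stayed higher, 5 stayed lower and 6 mitochondrial genes (all called ones but MT-ND2) stayed higher under each of 17 alternative fits at the 0.05 threshold. At an adjusted p under 0.01, 14 nuclear members were higher and 6 lower; with library totals 5 were lower. Leaving out single libraries gave 16 to 27 nuclear members higher and 6 to 14 lower, and 6 to 10 mitochondrial members higher and 0 to 2 lower. Mitochondrial members called lower, 0 by edgeR as reported, numbered 1 with DESeq2, 1 with no low-count filter, 2 with the replicate block and 2 with the block and removal of a length and GC trend. Same-numbered libraries deviated together only weakly (r = 0.0553, 0.0524 and 0.0349), although each correlated best with its own number, so the numbers were not taken as pairs; the block called 10 mitochondrial members higher, adding MT-CO1, MT-CO3 and MT-ND4, and MT-CYB and MT-ND3 lower, and the cause of the changes under the block was not tested. Signs turned for 4 genes, none of them called in the fit reported. SDHA came to 0.0164 and UQCRC2 to 0.0133 with library totals. SDHC came to 0.0566 with library totals, 0.0405 with the length and GC trend removed, 0.0391 with the block as well, and ran from -0.0211 to 0.0173 with single libraries left out. COX4I1 came to -0.0027 with the length and GC trend removed and -0.0024 with the block as well. Over 97 named genes and 1742 combinations of gene and alternative, 1593 kept direction and call, 73 lost the call, 67 gained it and 9 changed sign. Genes near 1 CPM (NDUFA7, NDUFA13, COX6B2) had few counts, so their fold changes are uncertain. Other genes on the same strand share 32.3% of NDUFA7's annotated exon bases, 21.0% of NDUFA13's and 30.9% of COX6B2's. The cause of the low counts was not tested.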
